A study of Mus musculus with 6 samples.

Results

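Natural killer (NK) cells in the tumor held less Kit RNA in the IL10/2-Trikine group than in the PBS group. Kit was the one gene of the 8 described here whose level passed the test across all genes. It was also lower in the mono-IL10 group, without passing, and the treated groups did not differ by the test. The call was lost when certain single mice were left out and when every mouse was thinned to the same total UMIs. The 8 genes, Eomes, Tbx21, Zeb2, Kit, Itga1, Itga2, Itgam and Cd27, are those commonly used to place a cell between the NK lineage and type 1 innate lymphoid cells (ILC1) and to stage NK maturation. They were chosen by name, with earlier results of these data known, from the 34187 gene features of the raw UMI matrices. Their counts were read in the 1069 cells that the deposited cell table assigns to the clusters NK, Cycling_NK and gdT/NKT, of 2084 annotated T and NK cells. The NK cluster held 795 cells, Cycling_NK 68 and gdT/NKT, named for gamma-delta T and NKT cells, 206.

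The cells came from C57BL/6 mice, male and female per the study's methods, with subcutaneous tumors of 6694c2vTRP1, a line derived from a mouse model of pancreatic ductal adenocarcinoma. All 3 groups received 2 intraperitoneal doses from day 8, and tumors were taken on day 14. One group received PBS, one mono-IL10, which is IL-10 engineered as a monomer, and one IL10/2-Trikine, in which mono-IL10 is linked to an IL-2 variant that recruits an IL-2 receptor chain. The 2 proteins were given at different masses per mouse. CD45+ cells were isolated with beads, yet 10181, 7572 and 22425 unannotated droplets of the PBS, mono-IL10 and IL10/2-Trikine libraries held tumor epithelial markers and no UMI of Ptprc, which encodes CD45. The cells of 5 mice per group were marked with hashtag antibodies and pooled in 1 library per treatment, so that treatment and library cannot be told apart, while the mice within a library serve as replicates. The 5 PBS mice served as the shared reference for both treatments.

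Eomes and Tbx21 (T-bet) are T-box transcription factors that NK cells use together, whereas ILC1 are classically T-bet positive and low in Eomes. Conventional NK cells carry the integrin CD49b, encoded by Itga2, and ILC1 and other tissue-resident cells the collagen-binding CD49a, encoded by Itga1. NK maturation in the mouse is read from the loss of the TNF receptor family member CD27 and the gain of the integrin CD11b, encoded by Itgam, with Zeb2 acting downstream of T-bet in terminal maturation. Kit, the receptor for stem cell factor, marks early progenitors and subsets of innate lymphoid cells.

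The NK cluster held 170 PBS, 253 mono-IL10 and 372 IL10/2-Trikine cells. Of these, 465 carried a hashtag that named a mouse, and those mice with at least 10 NK cells entered the test, which left 5 PBS, 4 mono-IL10 and 5 IL10/2-Trikine mice. The NK UMIs per mouse were 33913 to 128696 for PBS, 171570 to 320616 for mono-IL10 and 43848 to 158387 for IL10/2-Trikine, so the mono-IL10 mice were the deepest. The median annotated cell held 2780, 3959 and 2635 UMIs in the PBS, mono-IL10 and IL10/2-Trikine libraries. The 7 NK markers checked, among them Ncr1, Klrb1c and Gzma, summed to 5544 to 7506 CPM (UMIs scaled to a common total in each mouse) in the PBS mice, 8061 to 9532 in the mono-IL10 mice and 9428 to 16580 in the IL10/2-Trikine mice. Without Gzma, which rose in both treated groups, the list summed over each library to 5553, 7348 and 6785 CPM for PBS, mono-IL10 and IL10/2-Trikine. The macrophage list summed to 147 to 1319, 734 to 1166 and 925 to 1135 CPM in the same order, and the T cell list to 396 to 643, 374 to 521 and 433 to 612 CPM. Of the 795 NK cells, 196 held no UMI of Cd3e, Cd3d, Cd3g, Trac, Trbc1 or Trbc2, and the others held one mainly through Trbc1 (57.3% to 67.2% of NK cells by library) and Trbc2 (24.7% to 35.2%). Cd3e was in 0.588% to 1.61% of them, Cd3d in 3.53% to 4.84% and Trac in 2.15% to 9.09%. Without the NK cells holding more than 1 UMI over C1qa, C1qb, C1qc, Csf1r and Adgre1, 5 genes of the macrophage list, 753 of 795 cells were left and the Kit difference described below was −1.45 (adjusted p = 0.0320, edgeR). The list's other genes, such as Ccr2 in 41.8% to 66.0% of NK cells by library, did not enter that filter, and the part of the whole list and of the other lists in the results was not tested. Between 408 and 700 barcodes were shared by pairs of libraries, and none of them was an annotated cell.

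Kit was higher in NK cells of every PBS mouse than in those of any treated mouse in the test. Its level in the 5 PBS mice was 206, 208, 169, 148 and 154 CPM, a mean of 177 ± 28.8 (SD, n = 5). In the 4 mono-IL10 mice it was 68.6, 75.8, 112 and 58.0 CPM, a mean of 78.7 ± 23.6 (SD, n = 4). In the 5 IL10/2-Trikine mice it was 25.8, 101, 22.8, 71.1 and 38.5 CPM, a mean of 51.9 ± 33.5 (SD, n = 5). The lowest PBS mouse thus stood above the highest mouse of both treated groups, and the treated groups overlapped each other. Among all genes tested, the mice did not overlap for 2.17% in each of these comparisons, with 0.844% lower in IL10/2-Trikine and 0.882% lower in mono-IL10. Kit was the 1 gene of the 8 in both, and none of the 8 was free of overlap between the treated groups, where the share of all genes was 3.60%.

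Kit fell in IL10/2-Trikine against PBS by 1.49 on the log2 scale (SE 0.34, 95% interval −2.15 to −0.83, adjusted p = 0.0132, edgeR quasi-likelihood test), to 0.356 of the PBS level. It ranked 19 by p among 8053 genes. Of the 8 genes, 1 was called, against 0.459% of all genes tested (37 genes), of which 0.273% were higher and 0.186% lower. None of the 8 was called in IL10/2-Trikine against mono-IL10 (0.298% of all genes) or mono-IL10 against PBS (0.273%). At an unadjusted p under 0.05 the edgeR test held 2, 2 and 3 of the 8 in these comparisons, against 8.39%, 8.66% and 7.87% of all genes. Kit's call was lost without PBS mouse 2 (−1.39, adjusted p = 0.0813) and without IL10/2-Trikine mouse 5 (−1.32, adjusted p = 0.110), and when every mouse was thinned to the same total UMIs (−1.41, adjusted p = 0.330). In mono-IL10 against PBS the Kit difference was −0.94 (SE 0.29, 95% interval −1.50 to −0.37, adjusted p = 0.236), which did not pass. IL10/2-Trikine against mono-IL10 differed by −0.55 (95% interval −1.22 to 0.11, adjusted p = 0.706). The 330 NK cells without a mouse took no part in the test, and their Kit level was 117, 79.9 and 40.3 CPM for PBS, mono-IL10 and IL10/2-Trikine, from 28, 26 and 20 UMIs.

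Mast cells and basophils also express Kit. The 8-gene mast cell and basophil list summed to 0 to 46.6 CPM in the PBS mice, 0 to 10.5 in the mono-IL10 mice and 0 to 19.3 in the IL10/2-Trikine mice, and its part in the Kit result was not tested. Ms4a2, Fcer1a and Gata2 were at 0 UMIs in the NK cells of all 3 groups, and Cpa3, Mcpt8, Mcpt4, Cma1 and Hdc had 0 to 6 UMIs each in a group. Il17a, a gene of type 3 cells, was likewise at 0 in NK cells.

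**Figure D1:**
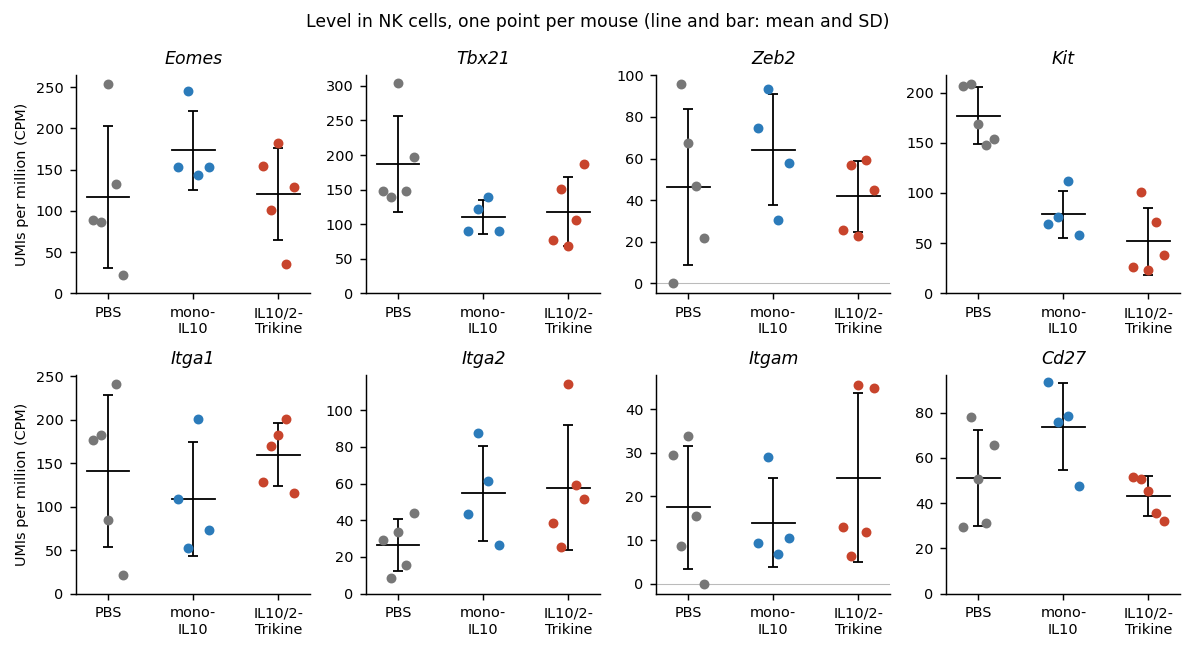
Level of the 8 genes in NK cells of each mouse, in CPM of the mouse's summed NK UMIs. Each point is 1 mouse (5 PBS, 4 mono-IL10 and 5 IL10/2-Trikine), the line is the mean and the error bar the SD. For Kit all treated mice lie below the lowest PBS mouse at 148 CPM, and for the other 7 genes the groups overlap.

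The share of NK cells with a Kit UMI showed the same order by group mean, but here the mice overlapped. Shares were computed after thinning each cell to 1500 UMIs, since deeper cells yield more detections. The Kit share averaged 19.0% of NK cells for PBS mice, 10.7% for mono-IL10 mice and 7.60% for IL10/2-Trikine mice, and without thinning it averaged 33.2%, 24.4% and 12.1%. After thinning, PBS mouse 3 at 12.7% lay below mono-IL10 mouse 4 at 14.5% and IL10/2-Trikine mouse 2 at 14.4%. IL10/2-Trikine differed from PBS by −11.4 percentage points (SE 2.99, exact permutation test over mice, two-sided, p = 0.0159) and mono-IL10 by −8.39 (SE 2.59, exact permutation p = 0.0317). None of the 24 detection comparisons computed (8 genes, 3 comparisons) passed Benjamini-Hochberg adjustment. The smallest p possible with these mice is 0.00794, so none could pass unless several reached it together. The unadjusted p was under 0.05 in 4 of the 24.

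For Eomes the mean in NK cells was 117 ± 86.1 CPM in PBS (SD, n = 5), 173 ± 47.8 in mono-IL10 (n = 4) and 120.5 ± 56.3 in IL10/2-Trikine (n = 5). The PBS mice spread from 22.0 to 254 CPM, the widest of the 3 groups, and contained both other ranges, 143 to 245 and 35.6 to 182. The fitted difference from PBS was −0.01 on the log2 scale for IL10/2-Trikine (SE 0.33, 95% interval −0.67 to 0.64, adjusted p = 0.997). IL10/2-Trikine against mono-IL10 was −0.68 (SE 0.27, adjusted p = 0.408) and mono-IL10 against PBS 0.67 (SE 0.29, adjusted p = 0.556). Neither passed the threshold.

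Tbx21 was 147, 139, 304, 148 and 198 CPM in the PBS mice, 90.5, 122, 139.7 and 89.6 in the mono-IL10 mice, and 77.4, 152, 68.4, 107 and 186 in the IL10/2-Trikine mice. The highest mono-IL10 mouse lay just above the lowest PBS mouse, and the IL10/2-Trikine mice fell on both sides of it. The mean was 187 ± 69.5 CPM for PBS, 111 ± 24.7 for mono-IL10 and 118 ± 50.1 for IL10/2-Trikine (SD). The log2 difference from PBS was −0.50 in mono-IL10 (95% interval −1.03 to 0.03, adjusted p = 0.693) and −0.35 in IL10/2-Trikine (95% interval −0.91 to 0.20, adjusted p = 0.838). Between the treated groups it was 0.15 (adjusted p = 0.954). The thinned share of Tbx21-detected NK cells was 25.1% in PBS and 15.9% in mono-IL10, a difference of −9.18 points (SE 3.96, exact permutation p = 0.0397, not past the adjustment).

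Zeb2 and Itgam were sparse in NK cells. Zeb2 was at 0 to 95.6 CPM in the PBS mice, 30.7 to 93.3 in the mono-IL10 mice and 22.8 to 59.3 in the IL10/2-Trikine mice, with a log2 difference of −0.24 for IL10/2-Trikine against PBS (95% interval −1.18 to 0.70, adjusted p = 0.963). It was −0.55 for IL10/2-Trikine against mono-IL10 (adjusted p = 0.792) and 0.31 for mono-IL10 against PBS (adjusted p = 0.915). Itgam, the CD11b chain, was carried by 50 UMIs over all 795 NK cells. Its level was 29.5, 8.69, 33.8, 15.5 and 0 CPM in the PBS mice, 9.36, 29.1, 6.81 and 10.5 in mono-IL10, and 12.9, 6.31, 45.6, 11.9 and 45.0 in IL10/2-Trikine. The ranges overlapped in every comparison, and the log2 difference of IL10/2-Trikine from PBS was 0.58 with a 95% interval from −0.88 to 2.04 (adjusted p = 0.929). IL10/2-Trikine against mono-IL10 was 0.73 (adjusted p = 0.862) and mono-IL10 against PBS −0.15 (adjusted p = 0.983). At this depth the interval of IL10/2-Trikine against PBS is wide and holds 0, so it does not settle whether Itgam differed.

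The 2 integrin chains that separate conventional NK cells from ILC1 did not pass in any comparison. Itga2 (CD49b) was 29.5, 8.69, 33.8, 15.5 and 44.0 CPM in the PBS mice, 43.7, 87.4, 61.3 and 26.3 in mono-IL10, and 38.7, 25.3, 114, 59.3 and 51.4 in IL10/2-Trikine. All 3 ranges overlapped. The log2 difference from PBS was 1.23 in IL10/2-Trikine (SE 0.58, 95% interval 0.09 to 2.37, adjusted p = 0.541) and 1.47 in mono-IL10 (SE 0.53, 95% interval 0.44 to 2.50, adjusted p = 0.374), and −0.24 between the treated groups (adjusted p = 0.954). Itga1 (CD49a) was 177, 182, 84.6, 241 and 22.0 CPM in PBS, 109, 52.5, 201 and 73.8 in mono-IL10 and 129, 170.5, 182, 202 and 116 in IL10/2-Trikine, again overlapping. Its log2 difference was −0.0044 in IL10/2-Trikine against PBS (SE 0.30, 95% interval −0.59 to 0.58, adjusted p = 0.998) and −0.30 in mono-IL10 against PBS (95% interval −0.89 to 0.29, adjusted p = 0.874). IL10/2-Trikine against mono-IL10 was 0.30 (adjusted p = 0.892). In the NK cells without a mouse, which took no part in the test, the levels ran differently. Itga2 there was at 50.03, 36.9 and 48.4 CPM for PBS, mono-IL10 and IL10/2-Trikine, from 12, 12 and 24 UMIs, so PBS was not the lowest. Itga1 was at 100.1, 95.3 and 153 CPM in the same cells.

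Cd27 was highest in mono-IL10 by the mean, at 73.8 ± 19.2 CPM (SD, n = 4), with 51.1 ± 21.3 in PBS and 43.1 ± 8.81 in IL10/2-Trikine (n = 5 each). The IL10/2-Trikine mice lay within 32.1 to 51.6 CPM, the narrowest range, and the mono-IL10 mice within 47.4 to 93.6. The log2 difference of IL10/2-Trikine from mono-IL10 was −0.94 (SE 0.37, 95% interval −1.66 to −0.22, adjusted p = 0.375), which did not pass. Against PBS it was −0.24 in IL10/2-Trikine (adjusted p = 0.961) and 0.70 in mono-IL10 (adjusted p = 0.700). The thinned share was 7.26% against 9.83% of cells, a difference of −2.57 points (exact permutation p = 0.0397, not past the adjustment). In NK cells without a mouse Cd27 was at 45.9, 67.6 and 64.5 CPM for PBS, mono-IL10 and IL10/2-Trikine. In the same cells and order Eomes was at 146, 175 and 139 CPM, Tbx21 at 167, 160 and 135, Zeb2 at 50.03, 70.7 and 36.3, and Itgam at 4.17, 30.7 and 12.1.

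**Figure D2:**
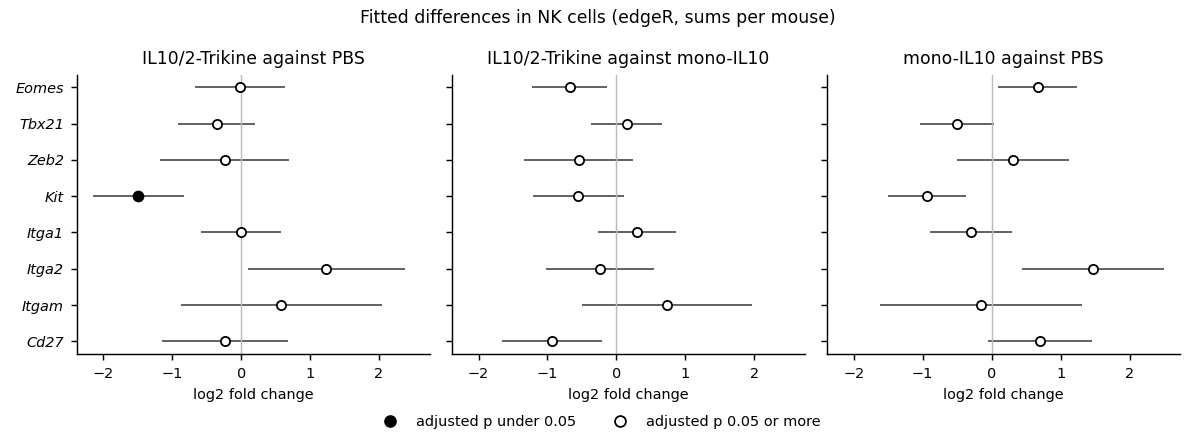
Log2 fold change of the 8 genes in NK cells for the 3 comparisons, from the edgeR fit across 8053 genes. Points are estimates and bars 95% intervals. Kit in IL10/2-Trikine against PBS at −1.49 is the one estimate past adjusted p 0.05.

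The shares of the 8 genes were next set beside those of naive T cells and of tumor epithelial droplets, as other cells of the same libraries. Neither lacks all 8 genes, so only low values there serve as a background. In naive T cells (273 cells, median 2831 UMIs) the thinned share with a UMI was 0.18% for Kit, 4.69% for Eomes and 5.36% for Tbx21, against 9.96%, 17.8% and 18.7% in NK cells. Over all libraries Itga1 stood at 16.8% in naive T cells and 16.7% in NK cells, but the order differed by library. It was 7.18% against 15.9% in PBS and 20.2% against 13.8% in mono-IL10. In unannotated tumor epithelial droplets Itga1 was at 153, 135 and 150 CPM in the PBS, mono-IL10 and IL10/2-Trikine libraries. Its level was 18.8 CPM in Treg and 16.4 in activated CD4 T cells, so it differed between cell clusters within the same libraries. Zeb2 in the tumor droplets was 55.8, 55.6 and 54.2 CPM, beside 54.6, 63.0 and 41.4 in NK cells of the same libraries. Itga2 was 80.5, 86.5 and 57.0 CPM in the droplets, beside 32.1, 49.8 and 48.3 in NK cells. The tumor epithelial markers summed to at most 87.9 CPM in any mouse's NK cells. What part free tumor RNA had in the Itga1, Itga2 and Zeb2 values of NK cells was not tested. Cd27, which naive T cells express, was at 12.5% in them and 8.17% in NK cells.

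**Figure D3:**
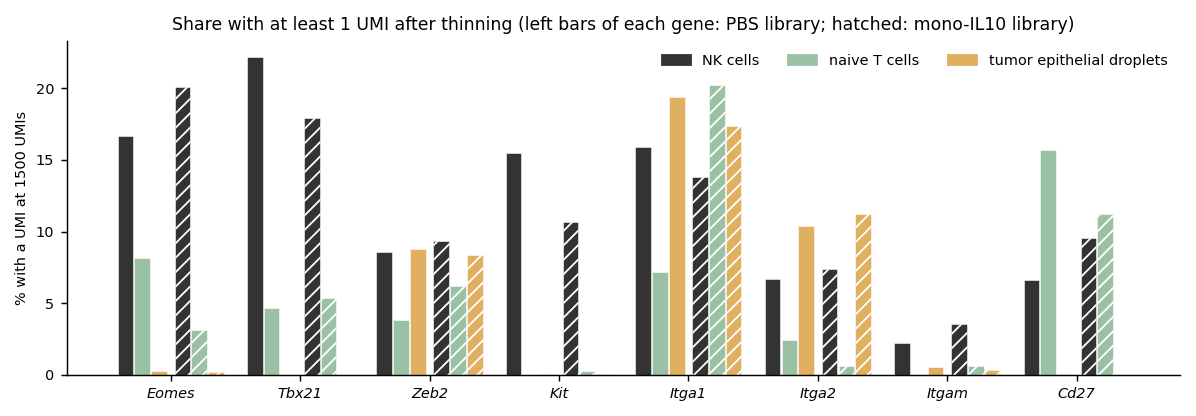
Share of cells with at least 1 UMI of each gene after thinning to 1500 UMIs, in percent, in NK cells, naive T cells and tumor epithelial droplets, with plain bars for the PBS library and hatched bars for mono-IL10. The IL10/2-Trikine library held 3 naive T cells and is not drawn. Kit reaches 15.5% and 10.7% of NK cells and at most 0.24% of both backgrounds, while Itga1 in tumor droplets (19.4% and 17.4%) stands above its NK share.

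The Cycling_NK cluster came mostly from the IL10/2-Trikine library (54 of 68 cells, with 4 from PBS and 10 from mono-IL10), so its levels are given for that library as a description, with 95% counting intervals. Eomes was 249 CPM (181 to 333) in these 54 cells, 24 of them without a mouse, against 126 (105 to 150) in the NK cells of the same library. By mouse, Eomes in Cycling_NK was 211, 221, 175, 380 and 102 CPM, on at most 6 UMIs each. In mouse 3 and mouse 5 it lay below the NK level of the same mouse. Itga2 was 133 CPM (84.9 to 197) against 48.3 (35.7 to 63.8), counting 24 cells without a mouse. By mouse, Itga2 in Cycling_NK was 0, 44.3, 87.6, 127 and 67.9 CPM, on at most 2 UMIs each. In mouse 1 and mouse 3 this lay below the NK level of the same mouse. Over the library Itga1 and Kit were lower in Cycling_NK than in NK. Itga1 was at 44.2 CPM (19.1 to 87.1) against 154 and Kit at 16.6 (3.42 to 48.4) against 50.2, the Kit value resting on 3 UMIs in 2 cells. Tbx21 at 110 CPM (67.5 to 171) and Cd27 at 77.3 (42.3 to 130) had intervals that held the NK levels of 136 and 53.2. Zeb2 was 93.9 CPM (54.7 to 150) against 41.4, and Itgam 33.1 (12.2 to 72.1) against 17.7. The clusters were made from the same RNA, so no test between them was run.

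In gdT/NKT cells, 78 from PBS, 75 from mono-IL10 and 53 from IL10/2-Trikine, the mice with at least 5 cells numbered 5, 5 and 2. The cluster carried T cell markers (1166 to 3165 CPM per mouse). Its NK markers summed to 2628 to 3657 CPM in the PBS mice, 3320 to 7695 in mono-IL10 and 4418 to 4420 in IL10/2-Trikine, above all PBS mice. Without Gzma the library sums were 3082, 3844 and 4919 CPM in the same order, and their part in the results was not tested. Of the gamma-delta genes Trdc was at 47.2, 144 and 124 CPM in PBS, mono-IL10 and IL10/2-Trikine, Il17a was at 0, and Trav11, the invariant NKT segment, was at 0 in all 3, so the name is used here as the label of the cluster. The neutrophil list reached 3380 CPM in 1 PBS mouse and at most 15.4 CPM in the treated mice, and its part in the results was not tested. Itga2 and Itgam did not reach 15 UMIs over all mice, so 6 of the 8 genes were tested and none passed the threshold in any comparison, against 0.0743% of 4039 genes for IL10/2-Trikine against PBS, 0.124% for IL10/2-Trikine against mono-IL10 and 0.198% for mono-IL10 against PBS. At an unadjusted p under 0.05 the same edgeR comparisons held 243 (6.02%), 249 (6.16%) and 175 genes (4.33%).

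Itga1 had the lowest p of these genes in gdT/NKT cells. It was 77.8, 57.4, 69.7, 51.2 and 39.6 CPM in the PBS mice, 169.9, 189, 59.2, 153 and 93.3 in mono-IL10, and 459 and 168 in the 2 IL10/2-Trikine mice. Both IL10/2-Trikine mice were above all PBS mice, and 11.8% of all genes had no overlap in this comparison of 2 against 5 mice. Itga1 was the 1 gene of the 6 without overlap there, and there was none against mono-IL10 (13.0% of all genes) or between mono-IL10 and PBS (0.867%). The log2 difference was 2.32 (SE 0.65, 95% interval 1.05 to 3.59, adjusted p = 0.230) for IL10/2-Trikine and 1.31 (SE 0.55, adjusted p = 0.998) for mono-IL10, both against PBS, and neither passed. Between the treated groups it was 1.01 (adjusted p = 0.784). The first was 1.24 without IL10/2-Trikine mouse 2 and 2.74 without mouse 5.

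Eomes in gdT/NKT cells was 77.8, 0, 34.8, 51.2 and 357 CPM in the PBS mice and 30.9, 53.9, 0, 27.8 and 0 in mono-IL10. No UMI was found in the 2 IL10/2-Trikine mice, although the 53 gdT/NKT cells of that library, which include cells without a mouse and of mice with fewer than 5 cells, held 9 UMIs in all (74.5 CPM). Mono-IL10 against PBS was −1.61 on the log2 scale (adjusted p = 0.998), and with both IL10/2-Trikine mice at 0 no fold is given for that group. Tbx21 ranged from 25.9 to 396 CPM in PBS, from 59.2 to 139 in mono-IL10 and from 0 to 177 in IL10/2-Trikine, and its log2 difference from PBS was −0.08 in IL10/2-Trikine and −0.02 in mono-IL10, with −0.06 between the treated groups (adjusted p = 0.999, 0.998 and 0.994). Kit was 77.8, 0, 105, 34.1 and 119 CPM in PBS and 177 and 55.9 in IL10/2-Trikine, with a log2 difference of 0.81 (95% interval −0.83 to 2.45, adjusted p = 0.974). Its difference was 0.84 for IL10/2-Trikine against mono-IL10 (adjusted p = 0.953) and −0.03 for mono-IL10 against PBS (adjusted p = 0.998). Zeb2 was at 0 to 287 CPM in the PBS mice, 0 to 59.2 in mono-IL10 and 35.3 and 0 in IL10/2-Trikine. Its log2 differences were −1.75 and −1.05 for IL10/2-Trikine and mono-IL10 against PBS and −0.70 between the treated groups (adjusted p = 0.951, 0.998 and 0.987). Cd27 was at 34.8 to 230 CPM in PBS, 0 to 154 in mono-IL10 and 106 and 280 in IL10/2-Trikine, with differences of 0.31, −0.52 and 0.83 in that order (adjusted p = 0.993, 0.998 and 0.932).

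The treatment difference in detection was set against that of NK cells mouse by mouse. For Kit the NK share minus the gdT/NKT share averaged 12.9 points in PBS and −5.01 in IL10/2-Trikine, a difference of −17.9 (SE 5.67, exact permutation p = 0.0476, the smallest possible with 2 against 5 mice). The same p was reached by Itga1 in IL10/2-Trikine against PBS, with a difference of −22.6 (SE 4.74), and by Cd27 in IL10/2-Trikine against mono-IL10, with −16.1 (SE 7.18), both by the exact permutation test. These comparisons took mice with at least 5 cells of 1500 UMIs or more in both clusters, which gave 5 PBS, 5 mono-IL10 and 2 IL10/2-Trikine mice. Of the 24, 3 had an unadjusted p under 0.05 and none passed the adjustment, and those with the 2 IL10/2-Trikine mice cannot go below p = 0.0476 in this exact test. Itga2 had 0 UMIs in the 53 IL10/2-Trikine gdT/NKT cells, which limits the share of cells with a UMI, not of cells expressing the gene, to 5.66% at the limit of 3 cells, or 6.72% as the upper bound of the exact 95% binomial interval.

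**Figure D4:**
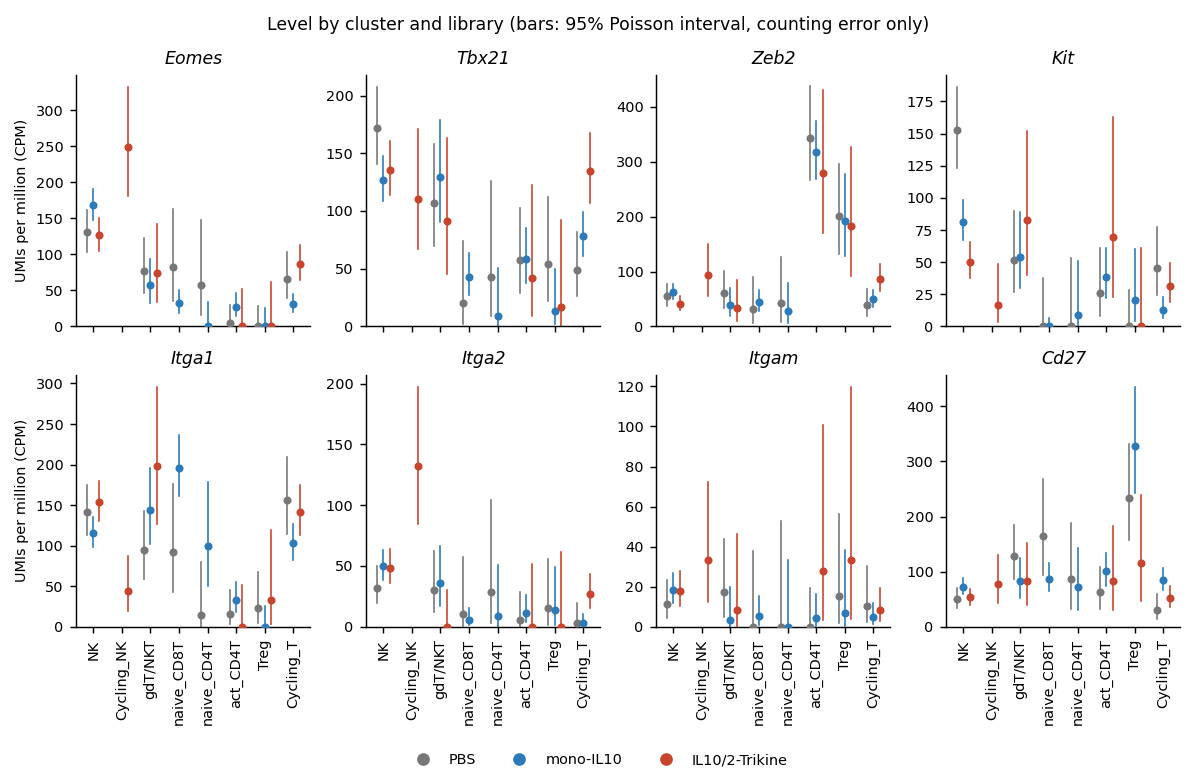
Level of the 8 genes in CPM in 8 annotated clusters by library, for profiles of at least 20 cells; points are summed UMIs and bars 95% Poisson intervals that cover counting error only. Eomes and Itga2 are highest in Cycling_NK, Kit in NK cells of PBS, and Zeb2 in act_CD4T cells.

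Among the annotated clusters, mean levels over the libraries with at least 20 cells of a cluster ranked as follows. Cycling_NK enters with the IL10/2-Trikine library alone and NK with 3. In mono-IL10, where Cycling_NK held 10 cells, it lay below NK for Eomes (140.0 against 168 CPM) and Itga2 (32.9 against 49.8). Eomes was highest in Cycling_NK (249 CPM), then NK (141) and gdT/NKT (69.8), though Cycling_NK was not above NK in every mouse, as given above. Tbx21 was highest in NK (145), then Cycling_NK (110) and gdT/NKT (109), and the library ranges of NK (127 to 172) and gdT/NKT (91.1 to 129) overlapped. Kit was highest in NK (94.8), then gdT/NKT (62.7) and activated CD4 T cells (44.6), with overlapping ranges. Zeb2, known for a role in effector T cells as well, led in activated CD4 T cells (313) and Treg (192), above Cycling_NK (93.9) and NK (53.0). Itga1 was at 146 in gdT/NKT, 144 in naive CD8 T and 137 in NK cells, whose library ranges overlapped. Itga2 led in Cycling_NK (133), then NK (43.4), though not in every mouse, as given above. Itgam was highest by this mean in Cycling_NK (33.1), then Treg (18.5) and NK (15.8), but the highest Treg library also stood at 33.1. Cd27 led in Treg (226) and naive CD8 T cells (126), above gdT/NKT (98.1) and NK (58.5).

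By Pearson correlation of log2(CPM + 10) over 20 cluster-by-library profiles and 7863 genes, the genes most like each of the 8 were found. They were Lrrk1 (r = 0.927), ENSMUSG00000121360 and Nrarp for Eomes, and Chn2 (0.863), P2ry14 and Ggct for Tbx21. For Zeb2 they were Il1r2 (0.952), Penk and Dusp14, and for Kit Rhoq (0.886), Rab27b and Dscam. For the integrins they were Cracr2a (0.883), Dapk2 and Mctp2 for Itga1, Muc1 (0.805), Abl1 and Khdc1a for Itga2, and Dab2ip (0.811), Zfp948 and Actr2 for Itgam. For Cd27, Nt5e (0.799) and Mif4gd were among them. The profiles share libraries and some rest on few cells, so these are descriptions without a test.

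Co-detection was read per NK cell. Of the 795 NK cells, 14.6% held none of the 8 genes, 33.5% held 1, 30.4% held 2, 13.1% held 3 and 7.04% held 4, shares that depend on depth. For each pair the thinned share of cells with both genes was divided by the product of the single shares, so that 1 means no association. Of 28 pairs, 8 had a ratio under 1 and 5 a ratio over 1 in all 3 libraries, as a description with no test.

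Eomes and Tbx21, which NK cells use together, had thinned ratios of 0.75, 0.79 and 0.81 in the PBS, mono-IL10 and IL10/2-Trikine libraries. Without thinning 83 cells held both against 89.3 expected, and in mono-IL10 44 against 44.3. Itga1 and Itga2, which mark the 2 lineages, had ratios of 0.52, 0.55 and 0.63, with 25 cells holding both against 33.2 expected. Eomes and Itga1 had ratios of 0.55, 0.62 and 0.88, and 65 cells held both against 76.7 expected. Eomes and Itga2 had ratios of 2.02, 1.38 and 1.01, and 45 cells held both against 32.1 expected. Itga2 with Itgam, the pair of mature NK integrins, had ratios of 5.23, 2.02 and 1.82, on 10 cells against 5.68 expected. Without thinning 3 cells held both against 0.71 expected in PBS, 4 against 3.72 in mono-IL10 and 3 against 1.74 in IL10/2-Trikine. Zeb2 with Itga2 had a thinned ratio of 1.21 in all 3 libraries, but without thinning 3 cells held both against 3.18 expected in PBS, 10 against 10.8 in mono-IL10 and 4 against 3.58 in IL10/2-Trikine. Itgam and Cd27, which maturation schemes oppose, shared 7 cells, against 7.57 expected, with ratios of 0, 0.56 and 2.34 in the 3 libraries. In gdT/NKT cells Eomes and Tbx21 had thinned ratios above 1, at 2.83, 1.72 and 1.07 in PBS, mono-IL10 and IL10/2-Trikine. There 11 cells held both without thinning against 6.99 expected, and in IL10/2-Trikine 1 against 1.36. In Cycling_NK, over all libraries, the ratio was 0.91, with 15 cells against 15.3 expected.

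**Figure D5:**
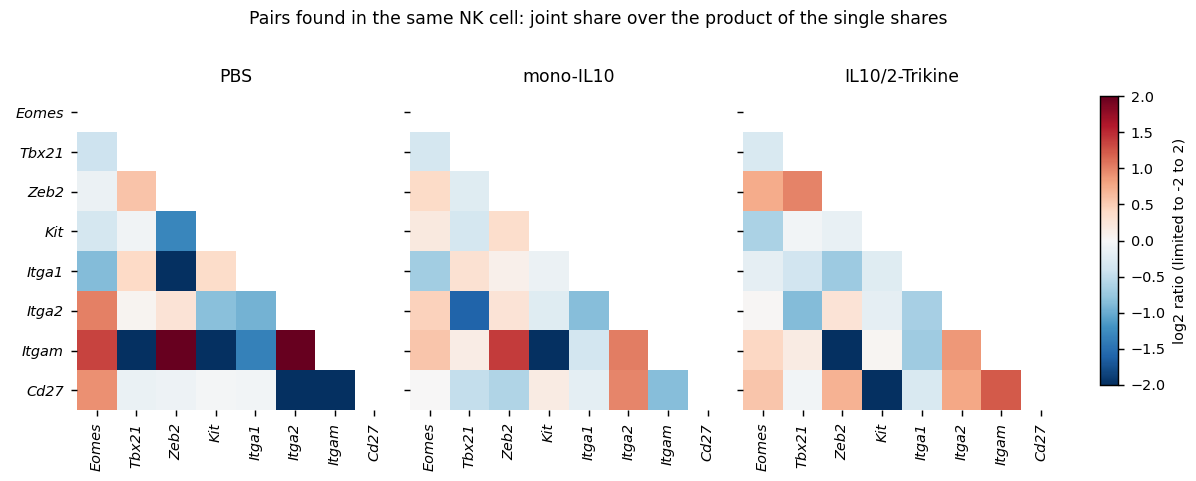
Log2 of the ratio of the thinned share of NK cells with both genes to the product of the single shares, for the 28 pairs in each of the 3 libraries; red is above the product, blue below, and values are limited to −2 and 2. Itga1 with Itga2 and Eomes with Tbx21 are blue in all 3 panels, and Itga2 with Itgam is red.

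To see which other genes went with each of the 8 in single NK cells, the thinned share of cells with a UMI of each of 73 list and marker genes was compared between cells with and without a UMI of the gene. Genes among the 6 with the widest gap are described, a choice made after the values were seen and given with no test. NK cells with Eomes more often held Gzma (74.2% against 47.6% of cells without Eomes). They less often held Gzmc (33.0% against 63.9%), Rora (7.27% against 25.7%), Inpp4b (13.0% against 29.9%) and Ikzf2 (17.9% against 34.6%), which are on the ILC1 and residence list. These gaps had the same direction in the 3 libraries. Gzmc, for example, was in 23.1% against 57.2% of PBS cells, 18.1% against 56.0% in mono-IL10 and 49.7% against 72.2% in IL10/2-Trikine.

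Cells with Itga2 shared this profile, with Gzma in 77.7% against 50.4%, Gzmc in 27.8% against 60.7% and Rora in 10.1% against 23.4%. Cells with Itga1 ran the other way for Gzmc (72.2% against 55.7%) and Inpp4b (37.5% against 24.8%). Cells with Tbx21 also leaned to Gzmc (65.5% against 56.8%) and Inpp4b (32.2% against 25.7%) and away from Gzma (45.1% against 54.0%). Each of these gaps kept its direction in the 3 libraries, but not its size. In PBS, mono-IL10 and IL10/2-Trikine, Itga1 with Gzmc was at 27.4, 19.5 and 7.87 points. Tbx21 with Gzma was at −17.1, −8.85 and −2.17 points and with Inpp4b at 1.01, 8.54 and 7.20.

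Cells with Kit held Gzma in 29.2% against 54.9%, Gzmb in 45.5% against 62.9% and Prf1 in 37.2% against 51.5%. They held Xcl1 in 71.9% against 54.8%, Rora in 36.2% against 20.9% and Tcf7 in 25.3% against 12.6%. These values pool the 3 libraries. Within PBS, mono-IL10 and IL10/2-Trikine the gap was −10.8, −20.7 and −4.93 points for Gzmb and −7.32, −6.15 and −15.0 for Prf1. It was 7.55, 12 and 17.4 points for Xcl1, 15.4, 6.46 and 18.6 for Rora and 12.9, 19.1 and 2.32 for Tcf7. The Kit and Gzma gap was 13.9% against 40.4% in PBS, 31.2% against 49.9% in mono-IL10 and 42.5% against 64.2% in IL10/2-Trikine. Cells with Itgam held Gzma in 87.4% against 51.2%, on 43 cells. Cells with Zeb2 held Klf2 in 12.3% against 4.57% and Gzmc in 42.6% against 59.7%, and cells with Cd27 held Bach2 in 37.3% against 30.3%. In PBS, mono-IL10 and IL10/2-Trikine the gap beside Zeb2 was 7.20, 10.5 and 3.31 points for Klf2 and −7.69, −14.5 and −20.1 for Gzmc. The Bach2 gap was 15.5 points in mono-IL10, 2.28 in PBS and 3.03 in IL10/2-Trikine.

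By treatment, 9 co-detection classes were compared over mice and none of the 27 comparisons had an exact permutation p under 0.05. The lowest was for Eomes with Tbx21, at 3.56% of NK cells for PBS mice, 2.67% for mono-IL10 mice and 0.803% for IL10/2-Trikine mice (IL10/2-Trikine against mono-IL10, difference −1.87 points, SE 0.665, exact permutation p = 0.0556). PBS mouse 3 alone was at 13.2%, and without it the PBS mean was 1.16%, below that of mono-IL10. Without thinning the means were 10.6%, 18.3% and 2.00%. Over all NK cells of each library, with or without a mouse, the thinned share was 2.77%, 2.82% and 2.40% in the same order. The low IL10/2-Trikine mean thus held for the mice in the test and not for the whole library. Itgam without a Cd27 UMI averaged 3.54%, 2.74% and 3.76%, Cd27 without an Itgam UMI 7.22%, 9.71% and 6.37%, and Itga1 without an Eomes UMI 15.9%, 12% and 16.5%. At 1500 UMIs a cell without a UMI of a gene need not lack it, so these classes name no cell type.

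Other genes of the same pathways were read from lists, which were also chosen with earlier results of these data known. Medians of log2 fold change are given beside that of all genes (0.06 for IL10/2-Trikine against PBS, −0.06 for IL10/2-Trikine against mono-IL10 and 0.12 for mono-IL10 against PBS). Calls over all genes were higher for 0.0745% and lower for 0.224% in IL10/2-Trikine against mono-IL10, and higher for 0.261% and lower for 0.0124% in mono-IL10 against PBS. Of 14 late maturation genes 11 were tested. In IL10/2-Trikine against PBS 3 rose and none fell. The median was 0.19 there, −0.17 in IL10/2-Trikine against mono-IL10 and 0.36 in mono-IL10 against PBS. The 3 were Gzma, a granzyme (767 CPM in PBS and 4593 in IL10/2-Trikine as means, log2 2.48, SE 0.28, adjusted p = 6.4e-10), Gzmb (log2 1.41) and the pore-forming Prf1 (1.53). The same 3 rose in mono-IL10 against PBS, by 1.34, 1.35 and 1.51, and Gzma rose in IL10/2-Trikine against mono-IL10 by 1.15 (adjusted p = 0.0383). These 3 encode cytotoxic granule proteins.

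Of 12 early NK genes, all tested, 2 rose and 2 fell in IL10/2-Trikine against PBS. The median was −0.19 there, −0.69 in IL10/2-Trikine against mono-IL10 and 0.32 in mono-IL10 against PBS. Thy1 rose by 1.02 (adjusted p = 0.00321) and Ctla2a by 0.70 (adjusted p = 0.0330). Xcl1, a chemokine, fell by 1.36 (adjusted p = 1.8e-05) from 2997 to 1043 CPM, and Tcf7, which encodes the early transcription factor TCF-1, fell by 1.37 (adjusted p = 0.0318) from 179 to 58.3 CPM. Against mono-IL10, Xcl1 and Tcf7 also fell in IL10/2-Trikine, by 1.13 and 1.25, and none of the list passed in mono-IL10 against PBS, where Ctla2a stood at 0.58.

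None of the 16 ILC1 and tissue residence genes passed in any comparison. The median was −0.58 for IL10/2-Trikine against PBS, −0.64 for IL10/2-Trikine against mono-IL10 and 0.20 for mono-IL10 against PBS. The 2 with the lowest p were Rora at −0.94 (adjusted p = 0.0659) and Gzmc at −0.55 (adjusted p = 0.296) in the first comparison. The thinned share of cells with Gzmc was higher in IL10/2-Trikine than in PBS among NK cells both with and without Eomes, as given above. That share pooled all NK cells of a library, with or without a mouse, while the level came from the mice in the test. For Gzmc the 2 measures thus ran in opposite directions over unlike sets of cells, and the reason was not tested. Cxcr6 stood at −1.88 (adjusted p = 0.0721) and Rora at −0.81 in the second, and Rgs1 at 0.48 and Cxcr6 at 1.23 in the third. Of 15 NK lineage transcription factors none passed, with medians of −0.08, −0.24 and 0.06. The lowest p were those of Bach2 (−0.74) and Nfil3 (1.06), then Stat4 (−0.56) and Ikzf3 (−0.65), then Id2 (0.75, adjusted p = 0.0886) and Ikzf3 (0.62), in the same order of comparisons. Of 4 binding partners of the 8 genes, 2 were tested, Itgb1 (−0.11 for IL10/2-Trikine against PBS) and Itgb2 (0.07), and neither passed. In gdT/NKT cells Gzma rose by 2.84 in IL10/2-Trikine (adjusted p = 0.0016) and by 2.83 in mono-IL10 against PBS (adjusted p = 3.3e-06), and no other gene of these lists passed. The share of all genes called higher was 0.0495% and 0.149% there. In mono-IL10 against PBS no gene passed with DESeq2 or with the filterByExpr gene filter, so the Gzma call was lost in those runs. The IL10/2-Trikine value rests on 2 mice.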

How the data were processed

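RNA of CD45+ tumor-infiltrating cells was measured with 10x GEM-X 5′ single-cell libraries. The authors deposited raw UMI counts per barcode, made with Cell Ranger 9.0.1 on GRCm39, and a table of cells with at least 1000 genes and at most 10% mitochondrial UMIs per the study's methods, their clusters and hashtag mouse. The submitters' processing notes name Seurat 5.1.0 and DESeq2 1.46.0. Its hashtag classes are singlet or negative, so it holds no droplets called as doublets of differently tagged mice. Doublets within a mouse or among untagged cells were not called here. Its 7858 cells of a group without a sample here were not analysed here. Annotated totals equalled those of the table for 505, 800 and 697 cells of the PBS, mono-IL10 and IL10/2-Trikine libraries.

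Counts were summed per mouse and cluster (at least 10 NK or 5 gdT/NKT cells), genes with at least 15 UMIs kept, scaled by TMM and tested with edgeR 4.0.16 in R 4.3.3 (quasi-likelihood, Benjamini-Hochberg over all genes, threshold 0.05, 3 groups in 1 fit). DESeq2 1.42.0 was an alternative. Shares were the expected share after thinning cells to 1500 UMIs, compared by exact two-sided permutation of mice (p is the share of splits with an absolute difference at least as large). Intervals are 95%, normal for fold changes and exact for single libraries, where they cover counting error only. Python 3.11.15, scipy 1.17.1, numpy 2.4.6 and pandas 2.3.3 were used. The scripts were tested on simulated data.

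The 8 genes are named in every comparison that tested them. Of each list, up to 3 genes with the lowest p past the threshold are named, or the 2 with the lowest p (NK cells). Where no list gene passed in gdT/NKT cells none is named. Neighbours are the genes with the highest Pearson correlation. The genes and lists were chosen with earlier results of these data known. With the mice of a treatment pooled in 1 library, p-values measure the spread between mice within a library. Some genes that these rules would name are not reported here.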

Additional observations from a re-analysis of the deposited data

Results flagged for a closer look

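A mouse was marked where its gap to the nearest other mouse of its group exceeded Dixon's critical value. Chance marks about 1 group in 20 for values on a continuous scale, and 11 of 67 groups of values were marked. In 4 of the 11 all other mice were at 0, where UMIs in 1 mouse alone mark it, so the chance rate does not apply to such sparse counts. In NK cells, Eomes in mono-IL10 mouse 2 was 245 CPM (143 to 153 in the other mice), and Itgam in the same mouse 29.1 CPM (6.81 to 10.5). In gdT/NKT cells, PBS mouse 5 stood apart for Eomes, at 357 CPM (0 to 77.8), and for Tbx21, at 396 CPM (25.9 to 115). PBS mouse 4 held Itga2 at 34.1 CPM in gdT/NKT cells, where the other mice were at 0, and mono-IL10 mouse 1 held Itgam at 15.4 CPM there, the other mice being at 0. Among co-detection shares of NK cells, Eomes with Tbx21 was 13.2% in PBS mouse 3 (0 to 3.04% in the others), and Itga1 with Itga2 was 1.98% in PBS mouse 4, the others being at 0. Itgam with Cd27 was 3.54% in IL10/2-Trikine mouse 3 (0 to 0.929%) and 0.491% in mono-IL10 mouse 5, the others being at 0. Itgam with Zeb2 was 2.89% in mono-IL10 mouse 2 (0 to 0.105%).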

How the results depend on the processing

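Kit was the only one of the 8 genes past the threshold in NK cells. The count of such genes in IL10/2-Trikine against PBS was 0 after thinning every mouse to 1 total and 0 to 1 when leaving out each mouse (0 without PBS mouse 2 or IL10/2-Trikine mouse 5). Kit's log2 difference ranged from −2.0 to −1.32 over left-out mice, and DESeq2 without independent filtering, chosen after seeing the data, gave −1.51 (adjusted p = 0.0428). With its filtering DESeq2 gave no adjusted p for Kit. Over all genes, the NK counts past the threshold were 37, 24 and 22 in IL10/2-Trikine against PBS, IL10/2-Trikine against mono-IL10 and mono-IL10 against PBS. In the first they became 90 with DESeq2, 62 with filterByExpr, 19 thinned and 84 with Cycling_NK added. In the second they became 48 without a filter, 7 thinned and 37 with Cycling_NK added. In the third they became 38 with DESeq2, 11 with DESeq2 without independent filtering, 12 without TMM, 42 without a filter, 6 with filterByExpr, 7 thinned and 14 without cells holding more than 1 UMI over C1qa, C1qb, C1qc, Csf1r and Adgre1. Leaving out mice gave 20 to 52, 7 to 33 and 13 to 32, with 20 and 13 without IL10/2-Trikine mouse 2 and 23 and 7 without its mouse 5 in the first 2 comparisons, and 13 without PBS mouse 1 and 14 without mono-IL10 mouse 1 in the third. In gdT/NKT cells the counts were 3, 5 and 8. The first became 1 with DESeq2 with or without independent filtering, 5 without TMM, 5 without a filter and 12 at 3 cells per mouse. The second became 1 with DESeq2 without independent filtering, 3 with filterByExpr and 14 at 3 cells per mouse. The third became 0 with DESeq2 with or without independent filtering, 0 with filterByExpr and 4 thinned. Leaving out mice gave 0 to 9, 1 to 6 and 5 to 11, with 0 and 2 without IL10/2-Trikine mouse 2 in the first 2 and 5 without mono-IL10 mouse 5 in the third. The cause of these shifts was not tested. Counts of detection, co-detection and NK-against-gdT/NKT comparisons past adjustment were 0 in every alternative run, but with so few mice hardly any could pass, so this says nothing about stability. Removing NK cells with T cell receptor UMIs left too few mice with 10 cells, and was not run. No paired analysis was possible because the hashtag numbers name different mice in each group.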
